A study of Arapaima gigas with 24 samples.

Results

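The 220 gene models described here were those with the highest mean level in poly(A) RNA sequencing of the brain and gonad of Arapaima gigas, the pirarucu, a large air-breathing fish of the Amazon basin. They were chosen by their measured level: the counts of both libraries of a fish and tissue were added, each sum was divided by the sample's total and expressed per 1000000 counts (CPM), and the 220 gene models with the highest mean CPM over 12 samples were taken. They made up 0.999% of the 22016 gene models in the table and are called here by their rank in mean CPM. Their high level is therefore the rule and not a result. A mean also lets in a gene model that was very high in a single sample, and it gives more weight to samples whose counts were concentrated in few gene models.

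The samples formed 4 groups of 3 fish each: brains of females, brains of males, ovaries and testes, the brain and gonad of a number and sex coming from 1 fish. Per the labels, the 6 fish came from a fish farm, were at least 4 years old and 100 to 120 cm long, and were in their reproductive period; no treatment is named. Sex was read from the gonad, by sperm in the testis and by primary oocytes in the ovary, and the study asked which genes differ between the sexes in each tissue. Reads were mapped to the genome of another fish, the Asian arowana (Scleropages formosus), so the level of a gene model depends on how well its sequence is shared between the species. Levels are not corrected for transcript length, and ranks order counts, not molecules.

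In most vertebrate tissues a small number of genes supplies a large part of the messenger RNA. Genes for ribosomal proteins, translation factors, the cytoskeleton, energy metabolism and chaperones are commonly among them in every tissue, and genes of a tissue's specialised cells, such as myelin genes in brain, egg coat genes in ovary and sperm tail genes in testis, are added in 1 tissue. Because CPM are shares of 1 total, a gene model that takes more of a library lowers the CPM of all others. The table gives identifiers without gene names, so none of the 220 gene models is given a name or function here, the lists of such genes were not matched to them, and the tissue labels were not checked against marker genes.

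The samples held 5689872 to 13142667 counts. The lowest count of any of the 220 gene models in any sample was 419, for which counting error alone is 4.89%, and the median was 4061.5 counts, with a counting error of 1.57%. Counting error was thus small for these gene models, and all 220 passed the expression filter of every comparison. The testis of male 3 stood apart from the other samples over these gene models. Its log2 CPM correlated with those of the other 11 samples at a median Pearson r of 0.366 over the 220 gene models, against 0.520 to 0.745 for the other samples. Over all gene models its median r was 0.956.

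Together the 220 gene models held between 11.4% and 26.5% of a sample's counts. In female brains they held 17.4, 26.5 and 22.7% of counts in females 1, 2 and 3. In male brains they held 12.6, 11.4 and 14.7% in males 1, 2 and 3. Every female brain lay above every male brain. Ovaries held 22.2, 26.4 and 21.5% and testes 21.0, 13.2 and 20.5%, so the gonads did not overlap either, but the lowest ovary and the highest testis lay close to each other. Group means were 22.2 ± 4.53% for female brain, 12.9 ± 1.65% for male brain, 23.4 ± 2.63% for ovary and 18.2 ± 4.37% for testis (SD, n = 3). Female minus male, the difference was 9.26 percentage points in brain and 5.15 in gonad. The share is a description without a test, since the gene models were chosen on these levels. In the gonad the difference was 2.56 points without male 2 and 6.09 without male 3. For these values both samples of the fish were left out and the 220 were redrawn from the remaining samples.

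The sex difference in the share was found in the middle of the list as well as at its top. Rank 1 alone held 3.34 ± 1.06% of counts in the brains of females and 1.60 ± 1.02% in those of males (SD, n = 3). Ranks 2 to 10 held 4.86 ± 1.54% and 1.89 ± 0.312%, and ranks 11 to 220 held 14.0 ± 3.21% and 9.44 ± 0.526% (SD, n = 3). In ovary and testis, rank 1 held 2.84 ± 1.99% and 1.53 ± 1.18%, ranks 2 to 10 held 5.33 ± 0.165% and 5.18 ± 1.51%, and ranks 11 to 220 held 15.2 ± 0.654% and 11.5 ± 3.10% (SD, n = 3). Ranks 2 to 10 thus had nearly the same mean share in ovary and testis, whereas their share in male brain was below that of every other group's mean. Counted from each sample's own top, 10% of all counts were reached by 36, 10 and 8 gene models in the female brains and by 112, 140 and 65 in the male brains. Ovaries needed 17, 6 and 17 gene models and testes 11, 90 and 20. Male brains and the testis of male 2 were the samples whose counts were spread over the most gene models.

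**Figure D1:**
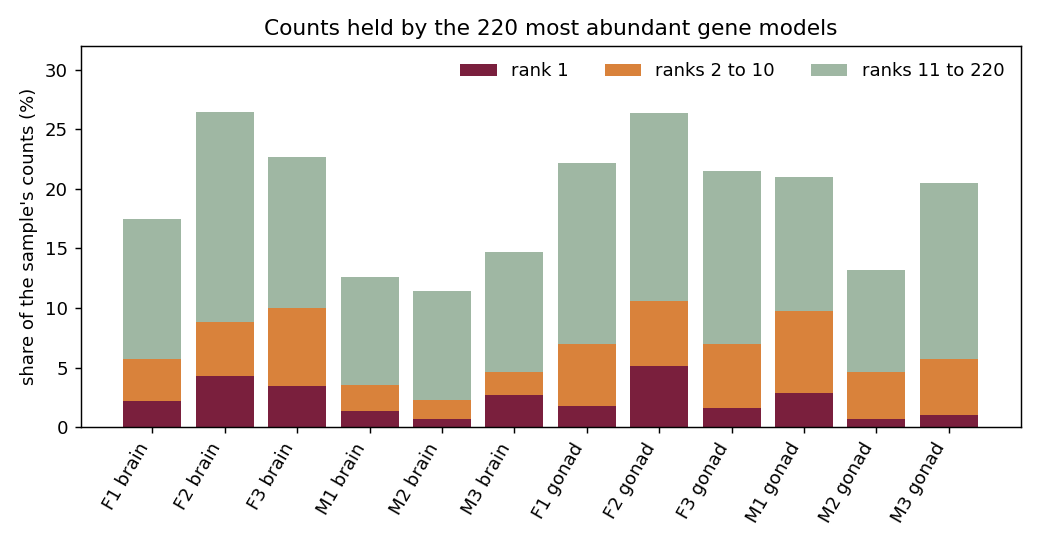
Share of each sample's counts (percent, vertical axis) held by the 220 most abundant gene models in the brain and gonad of females 1 to 3 (F1 to F3) and males 1 to 3 (M1 to M3), stacked as rank 1, ranks 2 to 10 and ranks 11 to 220. The 3 male brains (11.4 to 14.7%) and the testis of male 2 (13.2%) are the lowest bars.

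The most abundant gene model, rank 1, had a mean of 23304 CPM, 78.4 times that of rank 220. It stood at 22130, 43188 and 34987 CPM in the brains of females 1, 2 and 3 and at 14032, 6959 and 27152 CPM in those of males 1, 2 and 3. In the ovaries it reached 18136, 51394 and 15752 CPM and in the testes 28820, 7043 and 10056 CPM. It was the highest gene model in 9 of 12 samples, and its values overlapped between the sexes in both tissues. Both samples of female 2 were its highest and both of male 2 its lowest, and the highest was 7.38 times the lowest. The ovary of female 3 was led by rank 6 (19389 CPM), the testis of male 2 by rank 4 (18990 CPM) and the testis of male 3 by rank 2 (28604 CPM).

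Most of the other leading gene models varied widely between samples, although 9 of the first 10 by mean were also among the first 10 by median CPM, rank 5 being the exception. Rank 2 was at 1844, 12291 and 11220 CPM in female brains, at 1367, 1521 and 1028 CPM in male brains, at 7144, 12288 and 15619 CPM in ovaries and at 2606, 1101 and 28604 CPM in testes. It was low in all male brains and in the brain of female 1, and the testes held both its highest sample and a low one. Rank 5 was at 29750 CPM in the brain of female 3 and at 1021 to 6386 CPM in the other 11 samples. Rank 8 was at 26784 CPM in the testis of male 1 and at 396 to 4626 CPM elsewhere. These are high values of single fish, not of a sex or tissue. Rank 3 ran from 1499 CPM in the testis of male 3 to 11202 CPM in the ovary of female 2.

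Rank 4 was at 2451, 2673 and 4276 CPM in female brains and at 3832, 1179 and 2515 CPM in male brains. Its gonad values were 7256, 13330 and 902 CPM in ovaries and 4087, 18990 and 863 CPM in testes. Brains of both sexes overlapped in rank 4, and both gonad groups held a high and a low fish. Rank 6 was highest in the ovary of female 3 and next in the testis of male 3 (7995 CPM), and it ran from 929 to 4590 CPM in the other 10 samples. Rank 9 was at 8909, 6784 and 2430 CPM in female brains and at 2304, 1762 and 3493 CPM in male brains, so 1 female lay inside the male range. Rank 10 was at 11502 CPM in the testis of male 1 and at 542 to 4313 CPM elsewhere.

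Rank 7 was the steadiest of the first 10. It stood at 4391, 4361 and 4074 CPM in female brains, 3916, 3611 and 3721 CPM in male brains, 4742, 4263 and 5234 CPM in ovaries and 4177, 3429 and 5470 CPM in testes. Its highest sample was 1.59 times its lowest. Rank 12 was as even, at 1997 to 2970 CPM over all 12 samples. The first 12 thus held gene models of even level beside others with a very high sample.

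**Figure D2:**
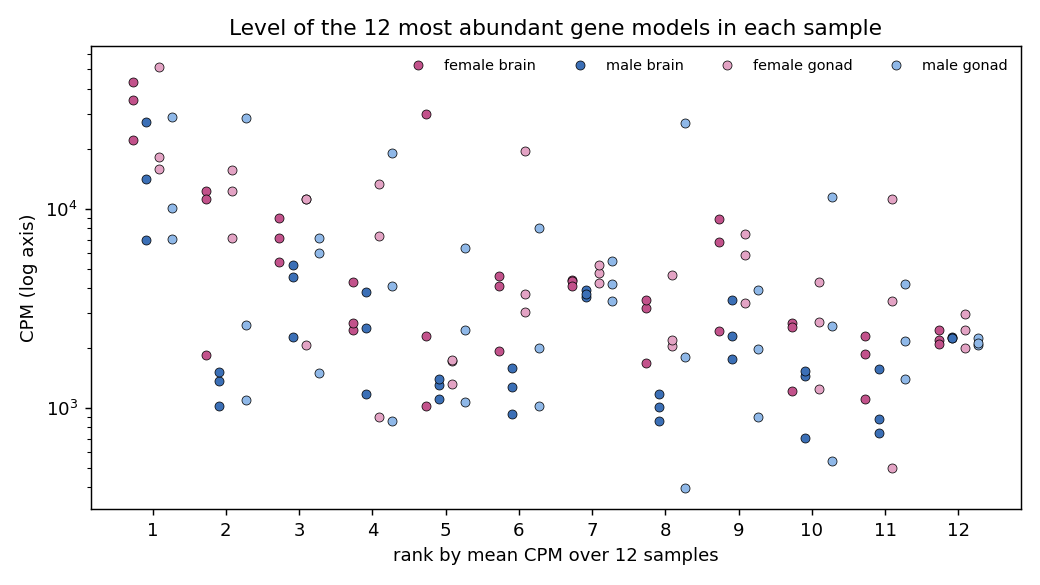
CPM (log axis) of the gene models of ranks 1 to 12 in each of 12 samples, 1 point per sample, coloured by group (female brain, male brain, female gonad, male gonad). Ranks 7 and 12 are tight clusters, while ranks 5 and 8 each have a single sample far above the rest, at 29750 and 26784 CPM.

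The range of a gene model over the 12 samples, the highest over the lowest with 0.5 CPM added to each, had a median of 3.61 over the 220 gene models and of 1.79 over all gene models. The quartiles were 1.70 and 9.39 for the 220 and 1.60 and 2.05 for all. In 52 of the 220 (23.6%) the range was at least 10-fold, against 125 gene models (0.568%) of the whole table. The next 220, ranks 221 to 440, had a median of 1.74 and 11 gene models (5.0%) at or above 10-fold. Selection by a mean favours gene models with a very high sample, and among the 220 highest by median CPM, of which 194 were the same, the median range was 2.61 and 33 (15.0%) reached 10-fold. Without the testis of male 3 the median range of the 220 was 3.12 and 42 reached 10-fold, and without the ovary of female 3 as well it was 2.54 and 36.

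The range was widest at the top of the list. Its median was 21.0 for ranks 1 to 10, 9.87 for ranks 11 to 50, 3.31 for ranks 51 to 100 and 2.46 for ranks 101 to 220. At the other end, 36 gene models (16.4%) had a range under 1.5-fold, against 13.6% of all gene models. These 36 had a median rank of 172.5, and only rank 12 among them was in the first 50. They held 1.51 to 1.69% of counts in every sample. Ranks 66 and 203 were the most even, at 616 to 717 CPM and 290 to 339 CPM over the 12 samples. The 52 gene models with a 10-fold range had a median rank of 56 and held from 2.59% of counts in the brain of male 2 to 10.1% in the brain of female 2.

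**Figure D3:**
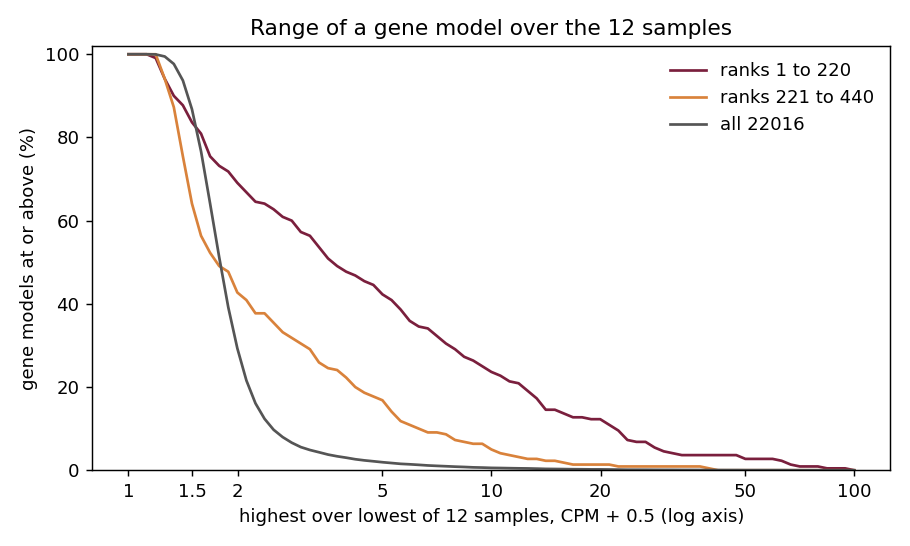
Percent of gene models (vertical axis) whose highest sample is at least a given fold above the lowest of 12 samples (CPM + 0.5, log axis), for ranks 1 to 220, ranks 221 to 440 and all 22016 gene models. At 10-fold the curves stand at 23.6, 5.0 and 0.568%.

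Fish of 1 group differed more in these gene models than in the whole table. The SD of log2(CPM + 0.5) over 3 fish had a median of 0.35 in female brain, 0.22 in male brain, 0.43 in ovary and 0.58 in testis over the 220 gene models. Over all gene models the medians were 0.22, 0.11, 0.20 and 0.22 in the same order. Male brains were the most alike and testes the least. The list was chosen on these same levels, and selection by a mean favours gene models with a very high sample. Averaged over the 4 groups, the median SD was 0.40 for the list and 0.30 for the 220 highest by median CPM.

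Membership in a sample's own 220 highest was shared widely. Between 156 and 182 of the 220 were also among the 220 highest gene models of a given sample. In all 12 samples 81 gene models were among the highest 220, all of them in the list, 67 at ranks 1 to 100 and 14 at ranks 101 to 220. All of ranks 1 to 10 belonged to these 81. Another 129 were among the highest in 4 to 11 samples and 10 in 3 or fewer. Over the 12 samples 548 different gene models reached a sample's highest 220, so 328 gene models did so without entering the list.

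At the border of the list, ranks 218, 219 and 220 had mean levels of 298.8, 297.6 and 297.1 CPM with medians of 225, 66.1 and 293 CPM. Just outside, ranks 221, 222 and 223 had means of 297.05, 295.83 and 295.77 CPM with medians of 233, 259 and 240 CPM. Rank 219 entered the list through the brain of male 3 alone (2516 CPM, against 39.6 to 270 CPM elsewhere), whereas rank 220 was even over all samples.

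The samples in which the 220 gene models were highest were not spread evenly. The testis of male 3 was the highest sample for 52 of them (23.6%, against 7.21% of all gene models) and the lowest for 39 (17.7%, against 8.06%). The ovary of female 3 was the highest for 33 (15.0%, against 6.77% of all gene models). The brain of female 2 was the highest for 27 (12.3%, against 2.73%) and the ovary of female 1 for 24 (10.9%, against 3.37%). The testis of male 2 was the lowest sample for 51 (23.2%, against 1.85% of all gene models). For 41 the lowest was the brain of male 3 (18.6%, against 2.40%). For 10 it was the brain of female 2 (4.55%, against 32.2% of all gene models). The testis of male 3 was thus at either end of the range more often among these gene models than in the whole table.

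A block of 57 gene models (25.9%, against 4.60% of all gene models) had the testis of male 3 and the ovary of female 3 as their 2 highest samples. They began with rank 2, had a median rank of 133, and 10 were in the first 50. Together they held 9.73% of counts in that testis and 9.64% in that ovary, and 2.19 to 5.29% in the other 10 samples. The other testes held 3.07% (male 1) and 2.19% (male 2), so the block was high in 1 testis and not in testes. A second block of 18 gene models (8.18%, against 1.19%), led by rank 1, had the brain and ovary of female 2 as their 2 highest samples. It held 9.46% of counts in that brain and 8.17% in that ovary, against 1.42 to 4.25% elsewhere. These blocks were formed from the same levels they describe.

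**Figure D4:**
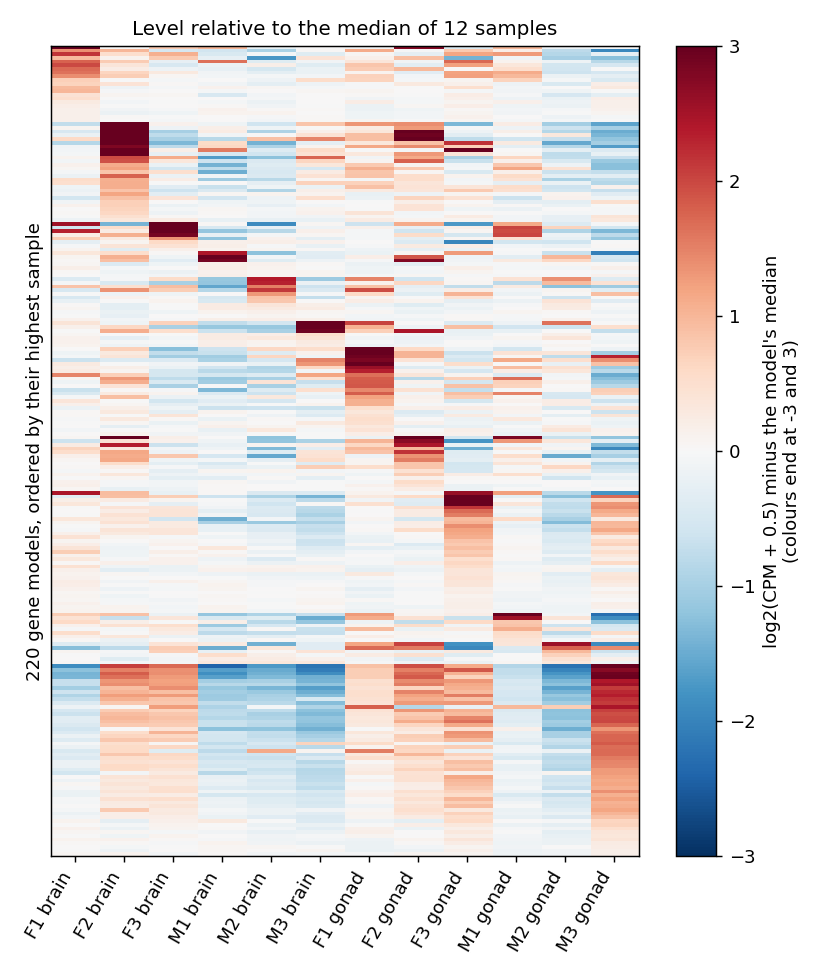
Log2(CPM + 0.5) of the 220 gene models (rows, ordered by their highest sample) minus each row's median over the 12 samples (columns), with red above and blue below the median and colours ending at -3 and 3. The lowest block of rows is high in the gonad of male 3 (M3) and, less so, in the gonad of female 3 (F3), and pale rows in every block are gene models of even level.

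Brain and gonad of the same fish were the 2 highest samples for 32 of the 220 gene models (14.5%, against 19.99% of all gene models). Fish of the same sex and tissue were the 2 highest for 20 (9.09%, against 30.7%). Over the 220 gene models the correlation of log2 CPM between samples had a median r of 0.684 for the 6 pairs of tissues of 1 fish and 0.598 for the 12 pairs of fish within a group. Over all gene models these medians were 0.969 and 0.963.

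Peaks in a single sample were common among the 220. In 34 (15.5%, against 1.51% of all gene models) the highest sample was at least 2 times the next highest. Selection by a mean favours gene models with such peaks, and the 220 highest by median CPM held 23. Of the 34 peaks, brains held 14 and gonads 20, with 20 in females and 14 in males. In all 34 the same sample was the highest in each of its 2 libraries taken alone. The largest was that of rank 44, at 8329 CPM in the brain of female 2, 479 CPM in the ovary of the same fish and 98.7 to 234 CPM in the other 10 samples. Rank 76 followed the same pattern, with 5011 CPM in the brain of female 2, 394 CPM in the ovary of that fish and 49.7 to 373 CPM elsewhere; its 2 libraries of that brain gave 6531 and 3597 CPM. For both, the brain was more than 10-fold above the next sample (17.4-fold and 12.7-fold).

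The other large peaks were in other fish. Rank 219 was 9.31-fold above its next sample in the brain of male 3, where its 2 libraries gave 1644 and 3440 CPM. Rank 17 was at 9975 CPM in the ovary of female 1 and at 325 to 1262 CPM elsewhere. Rank 18 was at 9537 CPM in the ovary of female 3 and at 516 to 1415 CPM elsewhere, and its 2 libraries there differed, with 14316 CPM in the first and 4142 CPM in the second. In bulk tissue, fewer cells of a type and less RNA per cell cannot be told apart, and this holds for every level given here.

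Male and female brains were compared with the quasi-likelihood test of edgeR over the whole table, with each sample scaled by TMM, which sets the bulk of gene models to the same level. Of the 220 gene models, 203 were lower in male than in female brain and 17 higher, with a median log2 fold change, male minus female, of -0.70 (quartiles -1.23 and -0.33, median SE 0.30). Over all gene models the median was 0.01 and 48.7% were lower. Ranks 221 to 2201 leaned the same way as the 220, with 80.3% lower in male brain. No gene model changed at an adjusted p under 0.05: 0 of the 220 and 0.0% of 22015 tested passed, with a smallest adjusted p of 0.130 (edgeR, Benjamini-Hochberg). At an unadjusted p under 0.05 there were 110 of the 220, all of them lower in males, against 11.1% of all gene models lower and 7.14% higher. DESeq2 called 80 of the 220, all lower in males, against 5.73% of all gene models; its adjusted p was undefined for 11 of them. On CPM scaled by TMM, the male and female brains did not overlap in 129 of the 220, all lower in males. Of all gene models, 13.6% were lower without overlap and 12.7% higher.

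The difference in brain was larger at higher ranks in mean CPM. The ranks were formed with the female brains included, so this order may follow in part from how they were formed. No list drawn from other samples was divided by rank. Ranks 1 to 50 had a median log2 fold change of -1.32, ranks 51 to 100 of -0.68 and ranks 101 to 220 of -0.50, and ranks 221 to 2201 had a median of -0.19. In the same bands 29 of 50, 26 of 50 and 55 of 120 gene models were at an unadjusted p under 0.05 in edgeR, and 32.1% in ranks 221 to 2201. Of the 636 at that p in ranks 221 to 2201, 632 were lower in males. All of ranks 1 to 10 had negative values, from -3.40 (rank 5) to -0.50 (rank 7), and 8 of these 10 were at least 2-fold lower. At least a 2-fold difference was found in 84 of the 220 (38.2%, against 1.54% of all gene models).

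Both blocks of gene models described above had lower values in male brain. The 57 gene models highest in the testis of male 3 and the ovary of female 3 were all lower, with a median of -0.87, and 48 of them were at an unadjusted p under 0.05 in edgeR. The 18 highest in the samples of female 2 were all lower, with a median of -1.50, and 7 were at that p. Of the other 145, 128 were lower, with a median of -0.57, and 55 were at that p. The 18 were formed with a female brain among their 2 highest samples, so their direction follows in part from how they were formed. The 57 were formed from 2 gonad samples, but within a list drawn with the brain samples included. Their direction in brain may therefore also follow in part from how the list was formed. For all gene models with the same 2 highest samples, the share at that p is not given here. The 48 can thus not be set against them.

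The 2 gene models lower in male brain with the smallest p were ranks 183 and 39. Rank 183 was at 332, 424 and 377 CPM in female brains and at 160, 146 and 160 CPM in male brains, 2 groups that did not overlap. Its log2 fold change was -1.61 (SE 0.20, adjusted p = 0.130, edgeR). Rank 39 was at 1326, 902 and 1068 CPM in females and at 534, 556 and 563 CPM in males, with a log2 fold change of -1.29 (SE 0.22, adjusted p = 0.142, edgeR). Neither passed the adjusted threshold, although in both every male was below every female. Among the 17 with higher values in males, rank 219 (3.11, SE 1.52, adjusted p = 0.321, edgeR) and rank 218 (1.20, SE 0.80, adjusted p = 0.439, edgeR) had the smallest p. Each rested on a single male, with 2516 CPM of rank 219 in the brain of male 3 and 1110 CPM of rank 218 in the brain of male 2.

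The size of the difference depended on the scaling. Scaled by total counts instead, the median log2 fold change in brain was -0.36 for the 220 and 0.31 for all gene models, a difference of -0.67 between them. The number of the 220 with lower values in males was then 169, and of 75 at an unadjusted p under 0.05 in edgeR, 73 were lower. The gene models outside the list were mostly higher in male brain in CPM: their median difference of log2(CPM + 0.5) was 0.31, and 88.9% of 21796 were higher. With the 220 left out of the totals this median was 0.15 and the share 75.1%. In the gonad the same median was 0.20 with the 220 in the totals and 0.11 without them.

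Because the 220 were selected with the brain samples included, lists drawn from parts of the 12 samples were also read from the same fit. The 220 highest gene models of the 6 gonad samples had a median of -0.74 in brain, with 206 lower and 124 at an unadjusted p under 0.05, all lower (edgeR). The 220 highest of the 6 male samples had a median of -0.58, with 199 lower and 103 at that p, all lower. Neither list reversed the direction. The gonad samples came from the same fish, and the male samples included the male brains compared here, so neither list was independent of this comparison. Without female 1, edgeR called 42 of the 220, all lower, and without female 2 the median was -0.41. In edgeR, whether any of the 220 passed the adjusted threshold thus depended on female 1. The share of all gene models called without female 1 is not given here, so the 42 cannot be set against the whole table.

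**Figure D5:**
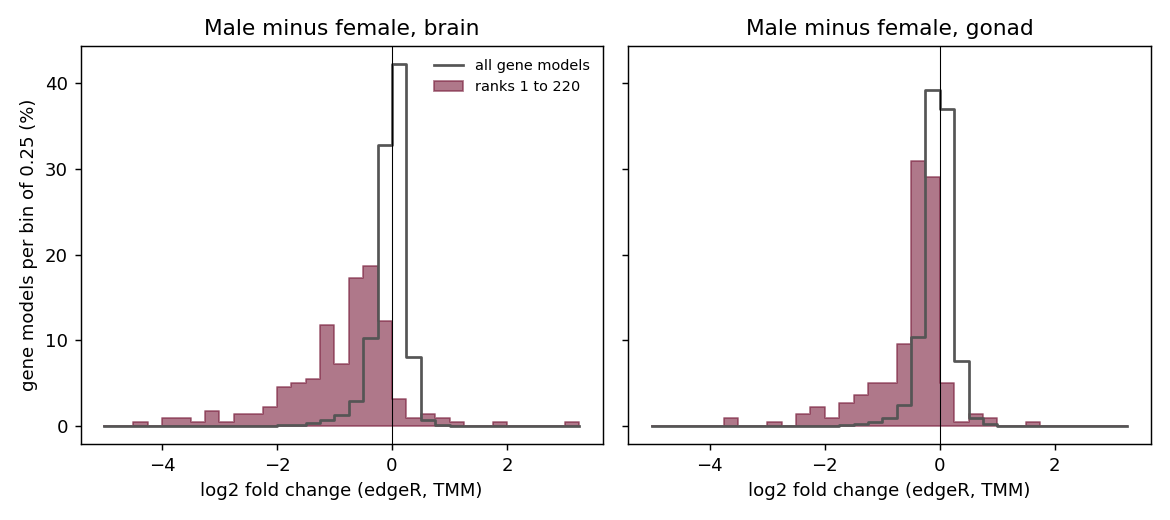
Distribution of male minus female log2 fold changes (edgeR with TMM, bins of 0.25, percent of gene models on the vertical axis) in brain and gonad, for the 220 most abundant gene models (filled) and all gene models tested (line). The 220 lie to the left of all gene models, with medians of -0.70 in brain and -0.32 in gonad against 0.01 and -0.02.

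Testis and ovary were compared in the same way. The gonad samples were also used to form the list, so its direction here may follow in part from that. Of the 220, 202 had lower values in testis and 18 higher, with a median log2 fold change of -0.32 (quartiles -0.65 and -0.19, median SE 0.51), against -0.02 for all gene models, of which 54.1% were lower. In edgeR 0 of the 220 and 0.0% of all gene models changed at an adjusted p under 0.05, with a smallest adjusted p of 0.809. At an unadjusted p under 0.05 there were 17 (7.73%), all lower in testis, against 3.5% of all gene models lower and 2.33% higher. Ranks 221 to 2201 leaned the same way, with 82.5% lower and a median of -0.15. Of these 1981 gene models 5.40% were at that p, 106 of them lower. DESeq2 called 1, lower in testis, against 0.127% of all gene models. On CPM scaled by TMM, the groups did not overlap in 28 of the 220, all lower in testis. Of all gene models, 5.54% were lower without overlap and 5.49% higher.

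In the testis of male 3 many of the 220 were high, and the gonad comparison moved with that fish. Without male 3 the median was -0.58 and 49 of the 220 were at an unadjusted p under 0.05 in edgeR, all lower. Without male 2 the median was -0.14 and 7 were at that p. The shares of all gene models at that p in these fits are not given here. Both blocks of gene models were formed from gonad samples, so their values in this comparison are a description only: the median was -0.26 in the 57 highest in the testis of male 3 and the ovary of female 3 and -1.32 in the 18 highest in the samples of female 2.

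Rank 34 had the smallest p in the gonad. It was at 1477, 1765 and 1088 CPM in ovaries and at 542, 369 and 209 CPM in testes, without overlap, and its log2 fold change was -2.19 (SE 0.51, adjusted p = 0.809, edgeR). Rank 112 followed, at 626, 501 and 374 CPM in ovaries and 322, 335 and 214 CPM in testes (-1.02, SE 0.30, adjusted p = 0.809, edgeR). The 2 groups were separate in each, and neither passed the adjusted threshold. The 2 with the smallest p among those higher in testis, rank 5 (0.84, SE 0.84, adjusted p = 0.867, edgeR) and rank 8 (1.54, SE 1.77, adjusted p = 0.887, edgeR), were both led by the testis of male 1. Among ranks 1 to 10, 7 had lower and 3 higher values in testis than in ovary.

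The gonad was set against the brain within each sex. The list was formed with the samples compared here, so the direction of the 220 may follow in part from how it was formed. In females 161 of the 220 had higher values in ovary than in brain, against 52.3% of all gene models. The median log2 fold change of the 220, gonad minus brain, was 0.17, against 0.01 for all gene models. Of ranks 221 to 2201, 33.2% were lower in ovary than in brain. In edgeR 0 of the 220 and 0.0% of all gene models changed, and at an unadjusted p under 0.05 there were 5 higher and 1 lower, against 1.76 and 1.46% of all gene models. These counts were near those of the whole table. In males 178 of the 220 had higher values in testis than in brain, against 52.8% of all gene models. The median of the 220 was 0.32, against 0.01 for all gene models. Of ranks 221 to 2201, 27.7% were lower in testis than in brain. Again 0 of the 220 and 0.0% of all gene models changed in edgeR, with 21 higher and 1 lower at an unadjusted p under 0.05, against 2.65 and 1.77%. DESeq2 called 2 of the 220, higher in testis, against 0.15% of all gene models. Without male 2, 44 of the 220 had an unadjusted p under 0.05 in edgeR, and without male 1 it was 5. The fits above did not pair the 2 tissues of a fish. With the fish as a block, 5 of the 220 in females and 7 in males were at that p, so the count in males was lower. For these fits too the shares of all gene models are not given. The comparisons within females and within males use other samples than each other, but each shares its samples with the sex comparisons above.

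None of the gene models with the smallest p in these comparisons passed the adjusted threshold in edgeR. In females, rank 24 was at 3376, 798 and 6228 CPM in brain and at 637, 443 and 700 CPM in ovary (-2.43, SE 0.75, adjusted p = 0.9999, edgeR). Rank 218 was at 214, 163 and 114 CPM in brain and 244, 343 and 235 CPM in ovary (0.83, SE 0.28, adjusted p = 0.9999, edgeR). In both, every ovary lay on 1 side of every brain. Rank 132 (2.12, SE 0.79) and rank 41 (-1.68, SE 0.73) were next in each direction, with the same adjusted p. In males, rank 209 was at 160, 189 and 161 CPM in brain and 265, 302 and 693 CPM in testis (1.54, SE 0.43, adjusted p = 0.825, edgeR). Rank 25 was at 422, 761 and 430 CPM in brain and 1561, 1329 and 4394 CPM in testis (2.43, SE 0.69, adjusted p = 0.825, edgeR). Here too the tissues did not overlap, with male 3 the highest testis in both. Rank 33 had the smallest p among those lower in testis, at 190, 626 and 932 CPM in male brain and 225, 210 and 148 CPM in testis (-1.42, SE 0.53, adjusted p = 0.825, edgeR), with brain and testis overlapping; rank 162 was next (-0.83, SE 0.45).

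With all 6 fish in 1 paired fit, 181 of the 220 had higher values in gonad, against 51.2% of all gene models. The list was formed with these same samples, so this direction may follow in part from how it was formed. The median of the 220 was 0.20, against 0.003 for all gene models. Of ranks 221 to 2201, 29.0% were lower in gonad. In edgeR 0 of the 220 and 0.0% of all gene models changed, with a smallest adjusted p of 0.783 among the 220. At an unadjusted p under 0.05 there were 5 higher and 0 lower, against 2.97 and 2.78% of all gene models. Rank 209 (0.90, SE 0.28) and rank 69 (0.62, SE 0.22) had the smallest p, each with an adjusted p of 0.783 (edgeR). The smallest p among negative values were those of rank 153 (-0.59, SE 0.34) and rank 44 (-0.67, SE 0.56). In DESeq2, 38 were at that p, all higher, against 4.07% of all gene models higher, and 0 passed its adjusted threshold. How many of the 220 reached an unadjusted p under 0.05 thus depended on the tool.

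Whether the sex difference itself differed between tissues was tested as an interaction over all 12 samples. In edgeR 0 of the 220 and 0.0% of all gene models passed. At an unadjusted p under 0.05 there were 6 with a more positive male minus female value in gonad and 0 with a more negative one, against 1.14 and 1.45% of all gene models. With the fish as a block, 0 of the 220 were at that p. The smallest p belonged to rank 24 (3.81, SE 1.28) and rank 5 (4.25, SE 1.67) on the positive side and to rank 17 (-2.64, SE 1.27) and rank 219 (-3.58, SE 1.82) on the negative side, each with an adjusted p of 0.9998 (edgeR). Ranks 5, 17 and 219 are gene models with 1 very high sample, in the brain of female 3, the ovary of female 1 and the brain of male 3. The median interaction over the 220 was 0.22 on the log2 scale, and it was -0.0004 without male 3. The lower median of the 220 in male brain than in testis, each against its own females, was thus not shown to be a difference between tissues.

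Both libraries of a sample gave close values for most of these gene models. Per sample, between 83.2 and 95% of the 220 agreed within 1.5-fold between the libraries, with a median of 88.6%. The differences were above sampling noise. The chi-square divided by its degrees of freedom was 69.1 to 415 over the 220 gene models and 2.65 to 9.49 over all. The chi-square grows with the count, so the ranges do not show that the 220 agreed less well. The median absolute log2 ratio of the libraries was 0.12 to 0.26 per sample over the 220 and 0.12 to 0.20 over all. With the 220 redrawn from the first library alone, their share of counts was 8.75 points higher in female than in male brain. Redrawn from the second alone, it was 10.07 points higher.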

How the data were processed

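Poly(A) RNA of brain and gonad of 3 female and 3 male fish was read on a SOLiD instrument in 24 libraries, 2 per fish and tissue. The authors deposited raw read counts, whole numbers for each library and gene model. The genome of Scleropages formosus served for mapping, per the series' design text, and Bowtie is named in the submitters' processing notes. For its version, the genome build, the annotation, the counting tool, strand and multiply matching reads, nothing was given in the sources read. Near-identical copies and overlapping gene models may therefore share counts, also in the list described.

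The 2 libraries of a fish and tissue, told apart by a title prefix whose meaning the labels do not explain, were summed, giving 12 samples of 5689872 to 13142667 counts. The labels' titles number the fish, so replicates are separate fish, n = 3 in each group. CPM used total counts. Counting errors cover counting only, and each SD is over the 3 fish of a group. In edgeR 4.0.16 (R 4.3.3), the quasi-likelihood F test with TMM scaling and the default filterByExpr (at least 10 counts, total of at least 15) was fitted on the whole table for each of 6 comparisons, with Benjamini-Hochberg adjustment over all gene models tested and a threshold of 0.05. Sex comparisons used the 6 samples of 1 tissue, tissue comparisons the 6 of 1 sex without a block, the fit over all fish was paired by fish, and the interaction used all 12 samples in 4 groups. Standard errors are the absolute log2 fold change divided by the square root of F. DESeq2 1.42.0 was an alternative, with undefined adjusted p-values kept undefined. The other alternatives were further scalings, no filter, each library alone and each fish left out. A block on the fish or on the replicate number and other rules for the list were also used. Both tools were tested on simulated data.

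By the labels' titles, brain and gonad of a number and sex are paired within 1 fish. Their deviations from the group means correlated at r = -0.02, 0.31 and 0.04 in females 1 to 3 and at -0.05, 0.05 and -0.14 in males 1 to 3.

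The gene models, the lists and the tests were chosen with earlier results of these data known. Single gene models are described by a rule: ranks 1 to 10, in each comparison the 2 in each direction with the smallest p where none passed, the 5 largest single-sample peaks, 3 gene models on each side of the border and the 3 most like rank 1. Identifiers are not reported here. Ranks 12, 66 and 203 were chosen after their values were seen. Lists of housekeeping genes and cell type markers were not matched to the identifiers and not used.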

Additional observations from a re-analysis of the deposited data

How the results depend on the processing

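The count of the 220 gene models past the adjusted threshold in edgeR was 0 in each of 6 comparisons with every scaling, without a filter and with each library alone. With DESeq2 it was 80 in the brain sex comparison, 1 in the gonad sex comparison and 2 between testis and male brain. Leaving out each fish in turn gave 0 to 42 in the brain sex comparison (42 without female 1) and 0 elsewhere, and the median interaction ran from -0.0003689 (without male 3) to 0.3912; the cause was not tested.

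With the replicate block, which pairs brain and gonad of a fish within a sex, the number with an unadjusted p under 0.05 was 5 in females and 7 in males, and 23 over all fish without the block. Females and males share only a number, and with it as a block the counts were 75 in brain and 10 in gonad. For the interaction the block was the fish, which pairs its brain and gonad, and the count was 0. No gene model of the 220 passed the adjusted threshold under any of these.

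Over the other settings the count at an unadjusted p under 0.05 ran from 75 to 124 in brain and from 10 to 26 in gonad. With 1 fish left out it ran from 68 to 115 and from 7 to 49. Shares of all gene models are not given for these counts. The median log2 fold change stayed negative in brain (-0.78 to -0.36) and in gonad (-0.58 to -0.13) under all of these settings. The share of counts held by the list differed by 7.17 to 11.85 percentage points in brain and by 2.56 to 6.54 in gonad with 1 fish left out. Single-sample peaks numbered 68 at a ratio of 1.5 and 14 at a ratio of 3.

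With 3 fish per group, the spread between fish and not the depth limits these values: the lowest count, 419, has a counting error of 4.89%. A p above the threshold does not show that groups were alike.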

Other observations

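Some of the 220 gene models differed between the 2 libraries of a sample in the same direction in every sample. In CPM, 46 of the 220 (20.9%) were higher in the second library in all 12 samples, against 279 gene models (1.27%) of the whole table and 19 of ranks 221 to 440 (8.64%). In the first library 18 (8.18%) were higher in all 12 samples, against 590 (2.68%) and 21 (9.55%). Rank 74 differed most often by a large factor. Its second library was 1.56, 2.47 and 1.95 times the first in female brains, 1.93, 2.86 and 2.59 times in male brains, 4.68, 3.25 and 1.45 times in ovaries and 1.93, 3.66 and 3.75 times in testes. What separates the libraries is not stated in the labels, and its part in these values was not tested.

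The gene models whose log2 CPM followed rank 1 most closely over the 12 samples were ranks 72 (Pearson r = 0.88), 199 (r = 0.84) and 205 (r = 0.83). Their levels share the libraries and totals of rank 1. Over all pairs of the 220 the median r was 0.08, with the 5th and 95th percentiles at -0.57 and 0.86. Consecutive identifier numbers were carried by 7 pairs within the list, and their levels over the 12 samples correlated at r = -0.55 to 0.80.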
